A study of Mus musculus with 2 samples.

Results

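The genes described here encode the nuclear subunits of the 5 mitochondrial complexes of oxidative phosphorylation, measured in 1 library of wild-type (WT) and 1 library of miR-146a-/- LSK cells. They were chosen by symbol from a table of 39017 gene identifiers: protein-coding nuclear genes of the Ndufa, Ndufb, Ndufc, Ndufs, Ndufv, Uqcr, Cox4 to Cox8 and Atp5 families, with Sdha, Sdhb, Sdhc, Sdhd and Cyc1. Assembly factors named Ndufaf and pseudogenes were left out. The rule found 86 genes, of which 81 had at least 20 counts summed over both libraries and are called measured. By complex, 36 measured genes belonged to complex I, 4 to complex II, 9 to complex III, 15 to complex IV and 17 to complex V. Ndufa4, named for complex I, was placed in complex IV, where its protein is found, as was its paralogue Ndufa4l2. Cox7a2l, known as a supercomplex factor, and Atp5s, known as factor B of the ATP synthase, were chosen by their symbols. They are not subunits of the assembled complexes, and what their proteins do in these mice was not measured.

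LSK cells carry no markers of mature blood lineages (Lin-) and are positive for Sca-1 and c-Kit. This small bone marrow fraction contains the haematopoietic stem cells together with early multipotent progenitors. The WT library came from a pool of 12 mice and the miR-146a-/- library from a pool of 6 mice. All mice were C57BL/6J and 10 to 14 weeks old, and both libraries were made from ribosome-depleted total RNA. miR-146a is a microRNA known as a brake on innate immune signalling, and the design asks how gene expression of these cells differs without it. With 1 library per genotype there was no replicate, so each difference compares these 2 libraries and no test between genotypes could be made. The labels do not describe the deleted allele or the sex of the mice. The row for the microRNA's own gene, Mir146, held 0 counts in both libraries, so it checks neither label.

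The respiratory chain passes electrons from NADH (complex I) and succinate (complex II) through ubiquinone to complex III, then through cytochrome c to oxygen at complex IV. Complexes I, III and IV pump protons across the inner mitochondrial membrane, and complex V, the ATP synthase, uses the returning protons to make ATP. Most subunits are encoded in the nucleus and imported, whereas a small set is encoded by mitochondrial DNA, and only complex II is wholly nuclear. Long-term haematopoietic stem cells are known to rely largely on glycolysis, and oxidative phosphorylation is engaged more as they divide and differentiate.

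Promoter sequences are shown for the 5 subunit genes called lower in the miR-146a-/- library and for Cox6b2, the gene with the highest ratio, because the nuclear respiratory factor NRF1, the ETS factor GABPA and YY1 are known to bind many promoters of these genes. Each sequence covers 100 bases before to 50 bases after the transcription start that RefSeq gives (GRCm38.p6) and is written 5′ to 3′ on the strand of the gene. Capitals mark matches to the motifs described after the sequences.
Ndufc1, chr3:51408906-51409055, minus strand: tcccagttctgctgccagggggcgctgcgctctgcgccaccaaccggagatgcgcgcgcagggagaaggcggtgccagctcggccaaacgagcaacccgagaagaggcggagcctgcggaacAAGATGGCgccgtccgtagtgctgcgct
Sdhb, chr4:140961171-140961320, plus strand: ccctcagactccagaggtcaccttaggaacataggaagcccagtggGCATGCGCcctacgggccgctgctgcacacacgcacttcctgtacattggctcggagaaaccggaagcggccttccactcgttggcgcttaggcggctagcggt
Uqcr11, chr10:80406772-80406921, minus strand: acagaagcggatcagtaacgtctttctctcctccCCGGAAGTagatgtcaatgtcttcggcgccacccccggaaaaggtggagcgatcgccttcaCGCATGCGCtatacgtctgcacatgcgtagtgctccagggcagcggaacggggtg
Atp5e, chr2:174464052-174464201, minus strand: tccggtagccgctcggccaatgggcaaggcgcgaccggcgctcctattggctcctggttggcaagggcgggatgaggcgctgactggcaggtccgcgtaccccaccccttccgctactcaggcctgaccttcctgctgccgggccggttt
Atp5j2, chr5:145191492-145191641, minus strand: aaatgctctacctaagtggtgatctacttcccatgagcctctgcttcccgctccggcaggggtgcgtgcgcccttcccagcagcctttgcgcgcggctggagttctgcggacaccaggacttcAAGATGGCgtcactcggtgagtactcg
Cox6b2, chr7:4753045-4753194, minus strand: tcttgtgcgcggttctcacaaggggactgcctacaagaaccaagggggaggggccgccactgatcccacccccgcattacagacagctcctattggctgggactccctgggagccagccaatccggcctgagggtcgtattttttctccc
The capitals are a match to AAGATGGC, the YY1 motif, just after the start of Ndufc1 and of Atp5j2. In Sdhb they are a match to the NRF1 core motif on the minus strand, and in Uqcr11 a match to the ETS motif followed by an NRF1 match. The windows of Atp5e and Cox6b2 held none of the letters searched.

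Over the whole RefSeq promoters, which run from 250 bases before to 50 after a start, 66 of the 81 measured genes had an entry. Motifs were searched on both strands. GCGCANGCG, the wider NRF1 motif, was in promoters of 20 of the 66 genes (30.3%), against 7.03% of 27025 genes and 6.25% of 32851 promoters in the RefSeq table. GCGCATGC, the NRF1 core, which overlaps the wider motif where both match, was in 10 (15.2%), against 3.05% of all genes and 2.71% of all promoters. AAGATGGC was in 10 (15.2%), against 3.19% of all genes and 2.75% of all promoters. In Ndufc1, Atp5j2, Ndufa3, Ndufa9, Ndufb8, Ndufs4, Ndufs6 and Ndufs7 it lay at bases 23 to 39 counted from the start. These letters contain ATG, and whether a match spans a start codon was not tested. CCGGAAGT, the ETS motif that GABPA recognises, was in 5 (7.58%), against 4.31% of all genes and 3.89% of all promoters. TATAAA, the TATA box, was in 5 (7.58%), against 15.7% of all genes and 13.6% of all promoters. The median log2 ratio of genes with the wider NRF1 motif was -0.40, against -0.42 for genes without it. For the NRF1 core the medians were -0.29 with and -0.42 without the motif, for AAGATGGC -0.57 and -0.41, for the ETS motif -0.51 and -0.41, and for the TATA box -0.16 and -0.42. Genes with a motif were thus lower than those without it for some motifs and higher for others, and these differences were not tested. These shares are descriptions of sequence, and no match was tested for binding. The RefSeq shares include genes not measured here, and none was taken over measured genes alone. Whether the contrasts are particular to subunit genes was not tested.

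Levels are given as counts and as counts per 1000000 (CPM) of the library size that trimmed mean of M values (TMM) scaling gives. Differences are log2 ratios of miR-146a-/- over WT, so a negative value means lower in the miR-146a-/- library. The range in parentheses after a ratio is its exact Clopper-Pearson 95% interval from the binomial share of counts, which covers counting error alone: no molecular identifiers are described, so several reads can stem from 1 molecule. A gene is called lower or higher when that whole interval lies beyond 1.5-fold.

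By their medians, nuclear subunit genes of all 5 complexes were lower in the miR-146a-/- library. The median log2 ratio of the 81 measured genes was -0.41, or 1.33-fold lower, against a median of -0.01 over all 13880 measured genes. Of the 81, 70 had a ratio below 0 and 11 a ratio above 0. The interval lay wholly below 0 for 61 genes, against 29.0% of all measured genes, and wholly above 0 for 6 genes, against 28.0% of all measured genes. The remaining 14 intervals included 0. Among protein-coding genes with at least 200 counts, 36.5% of intervals lay wholly below 0, against 75.9% for subunit genes with as many. With a transcript under 1000 bases, the shares were 41.8% of measured protein-coding genes and 71.7% of subunit genes. Differences of single genes were mostly small: 5 were called lower and 0 called higher, where 1.53% of all measured genes were called lower and 5.35% higher. Of protein-coding genes with a transcript under 1000 bases, 3.96% were called lower, against 7.55% (4 of 53) of subunit genes that short. The genes called lower were Ndufc1, Sdhb, Uqcr11, Atp5e and Atp5j2, at least 1 from each complex but complex IV. Summed over the 81 genes the level was 3958 CPM in WT and 3225 CPM in miR-146a-/-. The log2 ratio of these sums was -0.30 (-0.31 to -0.28), nearer to 0 than the median of single genes.

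The median log2 ratio was -0.49 in complex I, -0.44 in complex II, -0.40 in complex IV, and -0.34 in both complex III and complex V. Within a complex the genes ranged widely, with a standard deviation across genes of 0.30 in complex I and 0.42 in complexes III and V. Whether the complexes differ from one another was not tested. All 5 medians stayed below 0, and below the median of all genes, under each of the 4 other scalings tried. Scaling to total counts moves every ratio down, all genes to a median of -0.83, and puts all 81 subunit genes below 0.

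**Figure D1:**
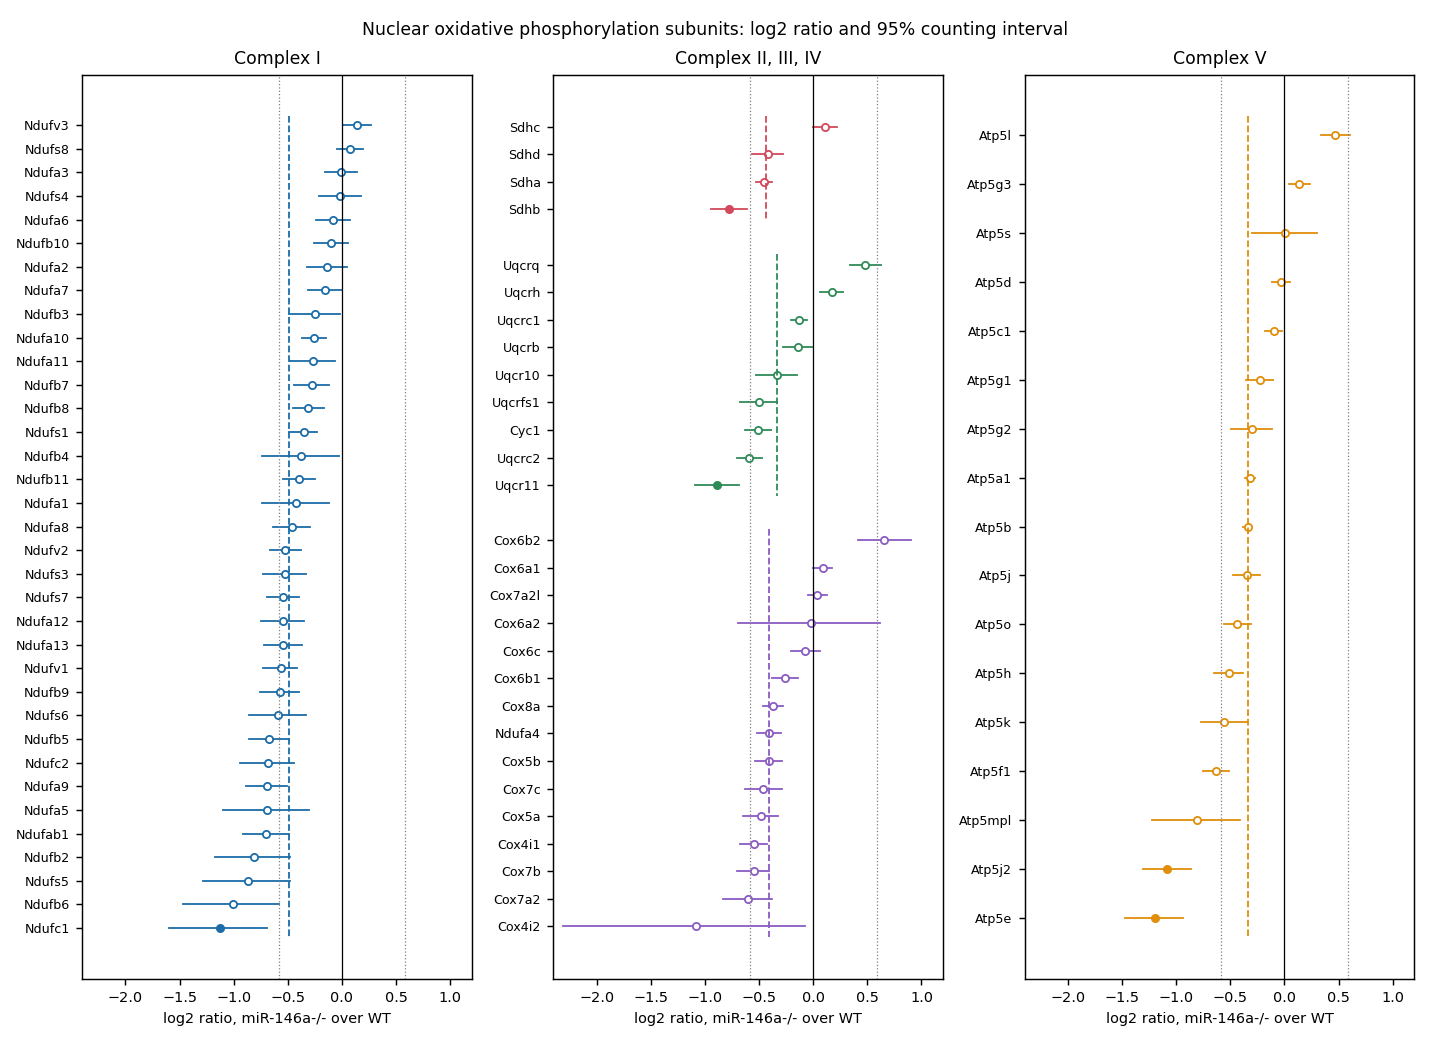
Log2 ratio (x axis, miR-146a-/- over WT, no unit) of 80 of the 81 measured subunit genes (y axis), grouped by complex, with bars for the 95% counting interval. Filled points are the 5 genes called lower, coloured dashed lines the complex medians, the solid line 0 and dotted lines 1.5-fold. Most points lie left of 0 in every complex with TMM scaling, and with total counts all of them do.

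Complex I oxidises NADH, and 36 of its nuclear genes were measured, with 34 ratios below 0. The intervals of 29 lay wholly below 0 and that of 1 wholly above. Its core subunits, which carry the flavin and the iron-sulphur clusters, were lower as a group: the median log2 ratio of the 7 was -0.53, and 6 of the 7 intervals lay below 0. The 29 accessory subunits had a median of -0.42. By module, the median was -0.36 for the 9 genes of the NADH-oxidising N module, -0.54 for the 5 genes of the ubiquinone-binding Q module, -0.39 for the 10 Ndufb genes of the membrane arm, and -0.51 for the 12 other accessory genes. Differences between these groups were not tested.

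Among the core subunits, Ndufv1, which binds the flavin and accepts electrons from NADH, had 1702 WT and 412 miR-146a-/- counts, or 36.5 and 24.6 CPM, a log2 ratio of -0.57 (-0.73 to -0.41). Ndufs7, which carries the last iron-sulphur cluster before ubiquinone, had 1902 and 468 counts and a log2 ratio of -0.54 (-0.69 to -0.40). Ndufs3, a Q module scaffold, had 1026 and 255 counts and a log2 ratio of -0.53 (-0.73 to -0.33). These 3 lay close together, between -0.57 and -0.53. Ndufv2, the partner of Ndufv1, had 2058 and 514 counts and a log2 ratio of -0.52 (-0.66 to -0.38). Ndufs1, the largest iron-sulphur subunit, had 2240 and 628 counts and a log2 ratio of -0.36 (-0.49 to -0.23). The exception was Ndufs8, an iron-sulphur subunit of the Q module, which had 2132 and 805 counts, 45.7 and 48.1 CPM. Its log2 ratio of 0.074 had an interval from -0.045 to 0.19, which included 0.

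The lowest accessory gene was Ndufc1, a small membrane-arm subunit (Ensembl identifier ENSMUSG00000037152; mm10 chromosome 3, 51404677 to 51408988, minus strand). It had 299 WT and 49 miR-146a-/- counts, or 6.41 and 2.93 CPM, a log2 ratio of -1.13 (-1.60 to -0.69), and was the only complex I gene called. Ndufb6, another membrane-arm subunit, had 292 and 52 counts and a log2 ratio of -1.01 (-1.47 to -0.58). Its interval reached just inside 1.5-fold, which is 0.58 on this scale, so it was not called. Ndufs5, on the intermembrane-space side of the membrane arm, had 322 and 63 counts and a log2 ratio of -0.87 (-1.29 to -0.48). These 3 genes rest on few miR-146a-/- counts and have the widest intervals of those named so far. At the other end, Ndufv3, an accessory subunit of the N module, had 1628 and 643 counts and a log2 ratio of 0.14 (0.0048 to 0.27), the 1 complex I interval wholly above 0. Ndufa3, a membrane-arm subunit, had 1422 and 508 counts, 30.5 and 30.4 CPM, and a log2 ratio of -0.0061 (-0.16 to 0.14).

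Complex II, succinate dehydrogenase, links the citric acid cycle to the respiratory chain. It has 4 subunits, and their ratios differed beyond counting error. Sdhb, the iron-sulphur subunit (ENSMUSG00000009863; chromosome 4, 140961203 to 140979193, plus strand), had 1719 WT and 360 miR-146a-/- counts, or 36.9 and 21.5 CPM. Its log2 ratio was -0.78 (-0.94 to -0.61), and it was called lower. Sdha, the flavoprotein that oxidises succinate, had 7752 and 2028 counts, 166 and 121 CPM, a log2 ratio of -0.46 (-0.53 to -0.38). Sdhd, a membrane anchor, had 1889 and 506 counts and a log2 ratio of -0.42 (-0.57 to -0.28). The other anchor, Sdhc, had 2421 and 935 counts, 51.9 and 55.9 CPM. Its log2 ratio was 0.11 (-0.004 to 0.22), so its interval does not overlap those of the other three.

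Complex III, the cytochrome bc1 complex, had 9 measured nuclear genes: 6 intervals lay below 0 and 2 above. Its redox subunits had nearly equal ratios. Cyc1, cytochrome c1, had 2823 and 711 counts, 60.6 and 42.5 CPM, a log2 ratio of -0.51 (-0.63 to -0.39). Uqcrfs1, the Rieske iron-sulphur protein, had 1463 and 370 counts and a log2 ratio of -0.50 (-0.67 to -0.34). The core proteins, which face the matrix, differed from each other beyond counting error. Uqcrc2 had 3149 and 750 counts and a log2 ratio of -0.59 (-0.71 to -0.48), whereas Uqcrc1 had 5996 and 1967 counts and a log2 ratio of -0.13 (-0.20 to -0.055).

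The 5 small subunits of complex III spanned the widest range of any group in that complex. Their median log2 ratio was -0.14, and with length and GC content adjusted for it was 0.058. Uqcr11 (ENSMUSG00000020163; chromosome 10, 80402997 to 80406830, minus strand) had 1249 WT and 242 miR-146a-/- counts, or 26.8 and 14.5 CPM, a log2 ratio of -0.89 (-1.09 to -0.69), and was called lower. Uqcrq, the subunit that binds next to cytochrome b (ENSMUSG00000044894; chromosome 11, 53427922 to 53430831, minus strand), had 1214 and 608 counts, 26.0 and 36.4 CPM, a log2 ratio of 0.48 (0.34 to 0.62). With nearly the same WT count, the pair thus lay at opposite ends, and their intervals are far apart. Uqcrh, the hinge protein that contacts cytochrome c1, had 2522 and 1019 counts and a log2 ratio of 0.17 (0.065 to 0.28). With total counts as the scale, Uqcrq and Uqcrh were below 0 as well, yet still above the median of all genes.

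Complex IV, cytochrome c oxidase, had 15 measured genes and 0 called, where 1.53% of all measured genes were called lower and 5.35% higher. Complexes I, II and III had 1 call each, so calls this few do not set complex IV apart. Its 11 widely expressed nuclear subunits had a median log2 ratio of -0.41, and 9 of their intervals lay wholly below 0. Cox4i1, the largest nuclear subunit and a regulator of the enzyme, had 2791 WT and 684 miR-146a-/- counts, or 59.9 and 40.9 CPM, a log2 ratio of -0.55 (-0.67 to -0.43). Cox7b had 1884 and 461 counts and a log2 ratio of -0.55 (-0.70 to -0.40). Cox7a2 had 873 and 206 counts and a log2 ratio of -0.60 (-0.83 to -0.38). Cox6a1, a subunit of the dimer interface, was the highest of the widely expressed subunits, with 3632 and 1383 counts, 77.9 and 82.7 CPM. Its log2 ratio was 0.086 (-0.0044 to 0.18). Cox7a2l, known as a supercomplex factor, had 4006 and 1476 counts and a log2 ratio of 0.038 (-0.049 to 0.12). Its interval included 0 and lay above that of its relative Cox7a2.

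Several complex IV subunits exist as a widely expressed form and as forms known from muscle, lung or testis, so the forms were compared as shares of their family's level per kilobase of transcript, which no scaling of the libraries can change. The form known from testis, Cox6b2 (ENSMUSG00000051811; chromosome 7, 4751792 to 4753094, minus strand), was detected here. It had 389 WT and 220 miR-146a-/- counts, or 8.34 and 13.2 CPM, a log2 ratio of 0.66 (0.41 to 0.90), the highest of all 81 genes but not called. Its widely expressed counterpart Cox6b1 had 2307 and 691 counts and a log2 ratio of -0.26 (-0.39 to -0.14). Cox6b2 thus made up 15.9% of the per-kilobase level of the pair in WT and 26.2% in miR-146a-/-. As a share of the pair's counts it went from 14.4% (exact Clopper-Pearson interval 13.1% to 15.8%) to 24.1% (21.4% to 27.1%), and these intervals do not overlap.

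The other tissue forms were low or not detected. Cox4i2, known from lung, had 54 and 9 counts, or 1.16 and 0.538 CPM, a log2 ratio of -1.08 (-2.31 to -0.076). It held 1.94% of the Cox4 per-kilobase level in WT and 1.33% in miR-146a-/-. Cox6a2, known from heart and skeletal muscle, had 79 and 28 counts and 1.79% and 1.67% of the Cox6a level. By this measure both forms lay far below their widely expressed counterparts in each library. The 5 genes under 20 summed counts were all of this kind: Cox7a1 had 9 and 4 counts, Ndufa4l2 had 0 and 1, and Cox7b2, Cox8b and Cox8c had 0 in both libraries. The gene just outside the limit of 20 was Cox7a1 with 13 summed counts, and the gene just inside it Cox4i2 with 63. A count of 0 allows up to 3 counts, which is 0.0644 CPM in WT and 0.179 CPM in miR-146a-/-.

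Complex V had 17 measured genes, of which 13 intervals lay below 0 and 2 above. The ring of its catalytic head, F1, is built from the products of Atp5b and Atp5a1, which had the highest levels per kilobase of the 81 genes in WT. Atp5b, the catalytic beta subunit, had 23378 WT and 6620 miR-146a-/- counts, or 501 and 396 CPM, a log2 ratio of -0.34 (-0.38 to -0.30). Atp5a1, the alpha subunit that alternates with it in the ring, had 19295 and 5550 counts, 414 and 332 CPM, a log2 ratio of -0.32 (-0.36 to -0.28). These ratios agree within counting error. The central stalk subunits did not follow them as a set. Atp5c1, the rotating gamma subunit, had 5269 and 1766 counts and a log2 ratio of -0.098 (-0.18 to -0.02), and Atp5d, the delta subunit, had 4575 and 1609 counts and a log2 ratio of -0.029 (-0.11 to 0.054).

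Atp5e, the epsilon subunit of the same stalk (ENSMUSG00000016252; chromosome 2, 174461072 to 174464105, minus strand), had the lowest ratio of all 81 genes. It had 884 WT and 138 miR-146a-/- counts, or 19.0 and 8.25 CPM, a log2 ratio of -1.20 (-1.47 to -0.94), or 2.30-fold lower. The membrane subunits held the second-lowest gene of the complex and its highest. Atp5j2, subunit f (ENSMUSG00000038690; chromosome 5, 145183698 to 145192062, minus strand), had 1172 and 198 counts, 25.1 and 11.8 CPM, a log2 ratio of -1.09 (-1.31 to -0.87), and was called lower. Atp5l, subunit g (ENSMUSG00000038717; chromosome 9, 44912557 to 44920742, minus strand), had 1428 and 710 counts, 30.6 and 42.5 CPM, a log2 ratio of 0.47 (0.34 to 0.60). These are both single-span subunits that help the synthase form dimers, and their intervals do not overlap. Atp5l has 3 annotated near-identical copies in the genome, so part of its reads could have been counted elsewhere: the copies held 50 WT and 8 miR-146a-/- counts. Adding them gave a log2 ratio of 0.44. Atp5mpl, a small protein of the same membrane part, had 308 and 63 counts and a log2 ratio of -0.81 (-1.23 to -0.42).

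The peripheral stalk, which holds the head still against the rotor, was the most uniform group of complex V. Its genes Atp5f1, Atp5h, Atp5o and Atp5j had log2 ratios of -0.63, -0.51, -0.44 and -0.35, each with an interval wholly below 0, and a median of -0.48. The c ring, which turns as protons pass, is built from 1 protein that 3 genes encode with different import signals. Atp5g1 had 2345 and 717 counts and a log2 ratio of -0.23 (-0.35 to -0.11). Atp5g2 had 1051 and 306 counts and a log2 ratio of -0.30 (-0.49 to -0.12). Atp5g3 had 3019 and 1190 counts and a log2 ratio of 0.14 (0.038 to 0.23), above both of the others, so its share of the c-subunit per-kilobase level was 42.3% in WT and 49.0% in miR-146a-/-. Of the c-subunit counts it held 47.1% (45.8% to 48.3%) and 53.8% (51.7% to 55.9%). Atp5s, factor B, had 356 and 128 counts and a log2 ratio of 0.0032 (-0.30 to 0.30).

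**Figure D2:**
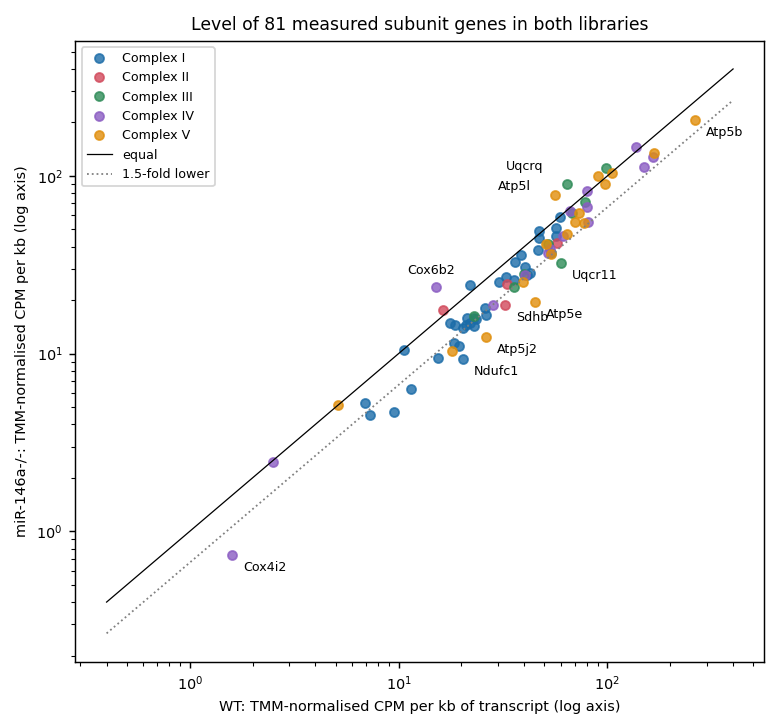
Level of the 81 measured subunit genes in the WT library (x axis) and the miR-146a-/- library (y axis), both in TMM-normalised CPM per kilobase of transcript on log axes, with 1 point per gene coloured by complex. The order of the genes is much the same in both libraries, Atp5b is highest in both, and most points lie between the line of equality and the line of 1.5-fold lower.

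Per kilobase of transcript, the levels of the genes kept much the same order in both libraries. In WT the highest was Atp5b at 262 CPM per kilobase, followed by Atp5a1 at 168, Cox8a at 166, Ndufa4 at 150 and Cox6a1 at 136. Ndufa4 and Cox8a are subunits of complex IV. In miR-146a-/- the same 5 genes led, at 207, 134, 128, 113 and 145 CPM per kilobase, with Cox6a1 moving to second place. The lowest measured genes in WT were Cox4i2 at 1.59 and Cox6a2 at 2.49 CPM per kilobase. Across the 81 genes, log10 levels per kilobase in the libraries correlated with r = 0.97 (Spearman's rho 0.97), a description across genes that share both libraries.

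Transcript length moved with the ratio over all genes, and subunit transcripts are short. Among measured protein-coding genes, the median log2 ratio was -0.18 for the 883 with a transcript under 1000 bases and -0.02 for the 11430 longer ones. Over 12313 protein-coding genes, the ratio correlated with log10 length with r = 0.15 (rho 0.21). Of the subunit genes, 53 had a transcript under 1000 bases, with a median ratio of -0.38, and 28 a longer one, with a median of -0.51. The difference between these medians was not tested, nor was the part of length in the subunit ratios. Within the 81 genes, r was 0.041 for log10 length and 0.051 for GC content. It was larger for level, at 0.26 for log10 WT CPM (rho 0.32) and 0.27 for log10 WT CPM per kilobase (rho 0.36). Genes of lower level thus tended to lower ratios, which was not tested. After a smooth adjustment for length and GC content fitted over protein-coding genes, the median of the 81 was -0.32, against -0.04 over all genes. Ndufc1, Atp5e and Atp5j2 were still called lower on that scale, while Sdhb at -0.70 and Uqcr11 at -0.74 were no longer called.

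**Figure D3:**
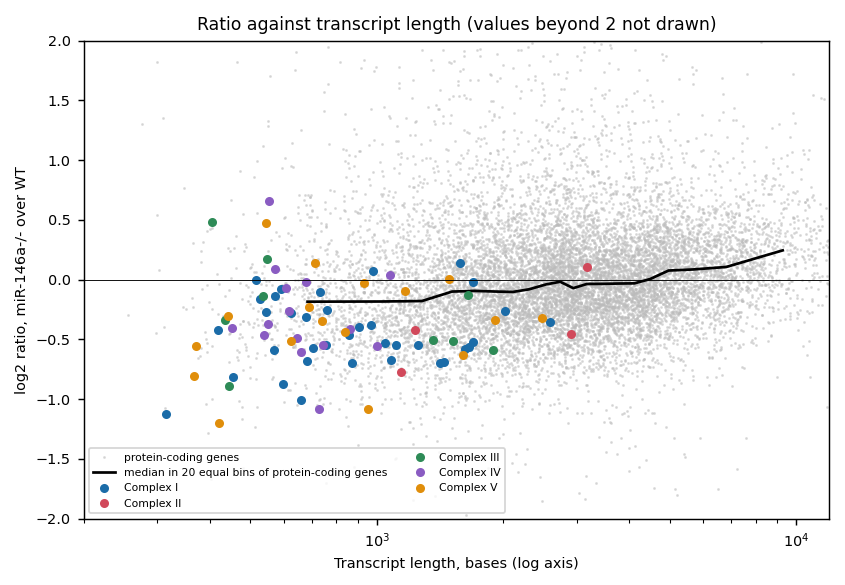
Log2 ratio of miR-146a-/- over WT (y axis, no unit) against transcript length in bases (x axis, log scale) for measured protein-coding genes (grey points) and the 81 subunit genes (coloured by complex). The black line joins the medians of 20 bins with equal numbers of protein-coding genes, and most subunit genes lie below it.

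The partners encoded by mitochondrial DNA were on the other side of 0. The count table lists 13 such genes. Of these, 9 were measured, and their median log2 ratio was 0.97. Of the 9, 7 were called higher and 0 lower, against 5.35% and 1.53% of all measured genes. mt-Co1, the catalytic subunit of complex IV, had 143797 WT and 100982 miR-146a-/- counts, or 3085 and 6038 CPM, a log2 ratio of 0.97 (0.96 to 0.98). mt-Cytb, cytochrome b of complex III, had 67595 and 49340 counts and a log2 ratio of 1.02 (1.01 to 1.04). Among the complex I subunits, mt-Nd5 was highest at 1.14 (1.12 to 1.16), and mt-Nd4l lowest at -0.45 (-1.32 to 0.33) on 65 and 17 counts. The summed CPM of the mitochondrially encoded subunits over that of the nuclear ones was 3.49 in WT and 8.83 in miR-146a-/- for complex I, 3.19 and 7.57 for complex III, and 4.69 and 10.9 for complex IV. These sums count reads, not molecules. In complex I, mt-Nd3 with 90 and 55 counts and mt-Nd4l with 65 and 17 add little to them. The genes mt-Co2, mt-Co3, mt-Atp6 and mt-Atp8 had at most 7 counts in a library. The ratio for complex IV thus covers mt-Co1 alone, and none could be given for complex V. The direction held with total counts, where the mitochondrially encoded median was 0.15. How far mitochondrial RNA was recovered in each library was not tested.

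Assembly factors, which build the complexes but are not part of them, had a median close to that of the subunits. Of 55 measured, 3 (5.45%) were called lower and 1 higher, where 1.53% of all measured genes were called lower and 5.35% higher. The median log2 ratio was -0.39, and by complex the medians were -0.48 (I), -0.10 (II), -0.29 (III), -0.34 (IV) and -0.61 (V). Ndufaf4, an early complex I factor, had 763 and 132 counts and a log2 ratio of -1.05 (-1.33 to -0.78). Ecsit, which serves complex I assembly and is also known as an adaptor in Toll-like receptor signalling, had 858 and 171 counts and a log2 ratio of -0.85 (-1.09 to -0.61). Tmem70, which helps build the c ring of complex V, had 857 and 172 counts and a log2 ratio of -0.84 (-1.08 to -0.60). The lowest ratio of the list was that of Sco2, a copper chaperone of complex IV, at -1.25 (-2.12 to -0.50) on 107 and 16 counts, which was not called. The gene called higher was Lyrm7, a chaperone of the Rieske protein of complex III, with 116 WT and 164 miR-146a-/- counts, or 2.49 and 9.81 CPM, a log2 ratio of 1.97 (1.63 to 2.33). Its client Uqcrfs1 and 4 of the 6 complex III factors had intervals wholly below 0.

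Among 21 electron carriers and genes of ubiquinone synthesis, 2 (9.52%) were called lower and 0 higher, with a median of -0.23. Over all measured genes, 1.53% were called lower and 5.35% higher. Dhodh, which feeds electrons from pyrimidine synthesis into ubiquinone, had 749 and 137 counts and a log2 ratio of -0.97 (-1.25 to -0.71). Coq6, a ubiquinone ring hydroxylase, had 752 and 140 counts and a log2 ratio of -0.95 (-1.22 to -0.68). The highest was Coq10b, which binds ubiquinone, at 0.66 (0.42 to 0.90). Cycs, cytochrome c itself, had 899 and 271 counts and a log2 ratio of -0.25 (-0.45 to -0.054). In the list of the ATP synthase inhibitor and ATP export, 7 genes were measured and 0 called, from Vdac3, a channel of the outer membrane, at -0.68 (-0.85 to -0.51) to Slc25a3, the phosphate carrier, at 0.14 (0.092 to 0.20).

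Regulators of mitochondrial biogenesis had ratios on both sides of 0. Of 22 measured, 1 (4.55%) was called lower and 1 higher, with a median of -0.24. Over all measured genes, 1.53% were called lower and 5.35% higher, and 1 call in either direction is too few to describe the list. Tfam, which packages and transcribes mitochondrial DNA, had 1340 WT and 274 miR-146a-/- counts, or 28.7 and 16.4 CPM, a log2 ratio of -0.81 (-1.0 to -0.62). Polg2, the accessory subunit of the mitochondrial DNA polymerase, had 276 and 258 counts, 5.92 and 15.4 CPM, a log2 ratio of 1.38 (1.13 to 1.63). The factors whose motifs were searched in the promoters had ratios near 0: Nrf1 -0.049 (-0.18 to 0.08), Gabpa -0.0024 (-0.11 to 0.10) and Yy1 0.091 (0.0069 to 0.18). Ppargc1a, the coactivator PGC-1alpha, was low in both libraries, with 192 and 104 counts and a log2 ratio of 0.59 (0.24 to 0.95).

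**Figure D4:**
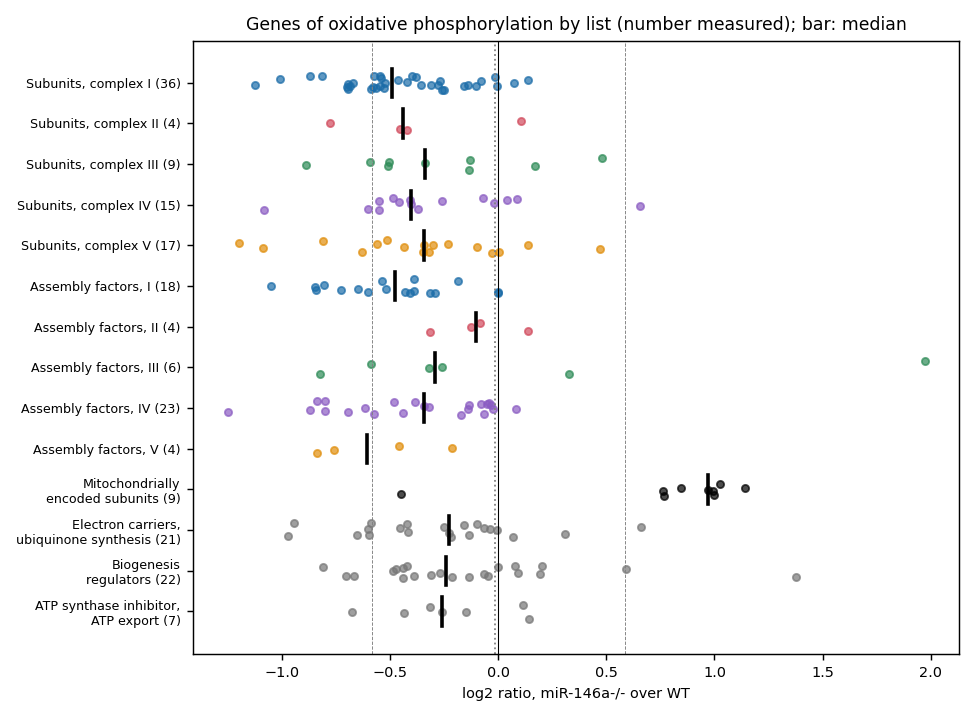
Log2 ratio of miR-146a-/- over WT (x axis, no unit) for each measured gene of the subunit, assembly, mitochondrially encoded, carrier, biogenesis and ATP export lists (y axis, number measured in parentheses). Black bars are list medians, the dotted line the median of all genes, and dashed lines 1.5-fold. With TMM scaling all list medians but that of the mitochondrially encoded subunits, 0.97, lie below 0.

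The libraries differed in ways that touch every ratio above. Total counts were 35069136 in WT and 22231389 in miR-146a-/-, of which protein-coding genes held 81.4% and 51.5%. Gm42418, a non-coding gene that overlaps ribosomal RNA, held 2.13% of WT and 27.2% of miR-146a-/- counts, and its part in these results was not tested. Of protein-coding counts, which this gene does not enter, the subunit genes held 0.647% in WT (exact Clopper-Pearson interval 0.644% to 0.650%) and 0.471% in miR-146a-/- (0.467% to 0.475%). Without mitochondrially encoded genes and Lars2, whose own share of counts was 0.0567% and 1.45%, the shares were 0.656% and 0.496%. Xist had 10988 and 49105 counts, and the sex makeup of the pools is not given; the 3 X-linked subunit genes, Ndufa1, Ndufb11 and Cox7b, had ratios of -0.42, -0.40 and -0.55. The 9 markers of LSK cells were all measured and summed to 2440 and 2752 CPM. Of them 0 were called, where 1.53% of all measured genes were called lower and 5.35% higher.

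Markers of other cell types were summed in the same way, and their calls stand beside 1.53% lower and 5.35% higher over all measured genes. Neutrophil markers summed to 14.2 CPM in WT and 6.28 in miR-146a-/-, with 3 of 6 measured called lower. B or plasma cell markers summed to 136 and 93.5 CPM, with 2 of 5 called lower. Igkc was the largest of them, at 82.7 and 38.2 CPM, while Cd79b was at 16.2 and 15.7 and Sdc1 at 30.3 and 36.3. Monocyte or macrophage markers summed to 122 and 146.5 CPM, with 1 of 8 called higher, F13a1, on 97 and 96 counts. The largest of them in WT, Lyz2, was at 62.9 and 51.4 CPM, and Itgam at 35.9 and 56.8. T or NK cell markers summed to 37.4 and 38.4 CPM, with 2 of 4 called higher and Cd3e, Cd3d, Cd3g and Cd8a at 0. The called genes were Cd4, on 86 and 68 counts, and Gzmb, on 9 and 13. Most of the sum was Nkg7, at 34.4 and 31.7 CPM, which was not called. Megakaryocyte markers summed to 31.6 and 42.3 CPM, with 2 of 5 called higher. Erythroid markers summed to 2.72 and 3.17 CPM, with Alas2 at 0, and mast cell, basophil or eosinophil markers to 5.77 and 7.53. Stromal or endothelial markers summed to 151 and 194 CPM, mostly from Pecam1 and Pdgfrb, with Lepr at 0. The others of that list were low: Col1a2 had 80 and 60 counts, Cxcl12 36 and 10, Col1a1 11 and 7, and Cdh5 4 and 3. In these bulk samples fewer cells of a type and less RNA per cell cannot be told apart, and the part of these markers in the subunit ratios was not tested.

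How reads were assigned could bear on single genes. Whether strand was used in counting is not given in the sources used here, and 18 of the 81 subunit genes overlap another protein-coding gene by at least 100 bases. Their median log2 ratio was -0.47, against -0.41 for the 63 that do not. A near-identical copy was annotated for 13 genes; the copies held 206 WT and 51 miR-146a-/- counts, and with them added the median over the 81 genes remained -0.41 and 5 genes were called lower. None of the 5 genes called lower overlapped a coding gene to that extent or had such a copy.

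**Figure D5:**
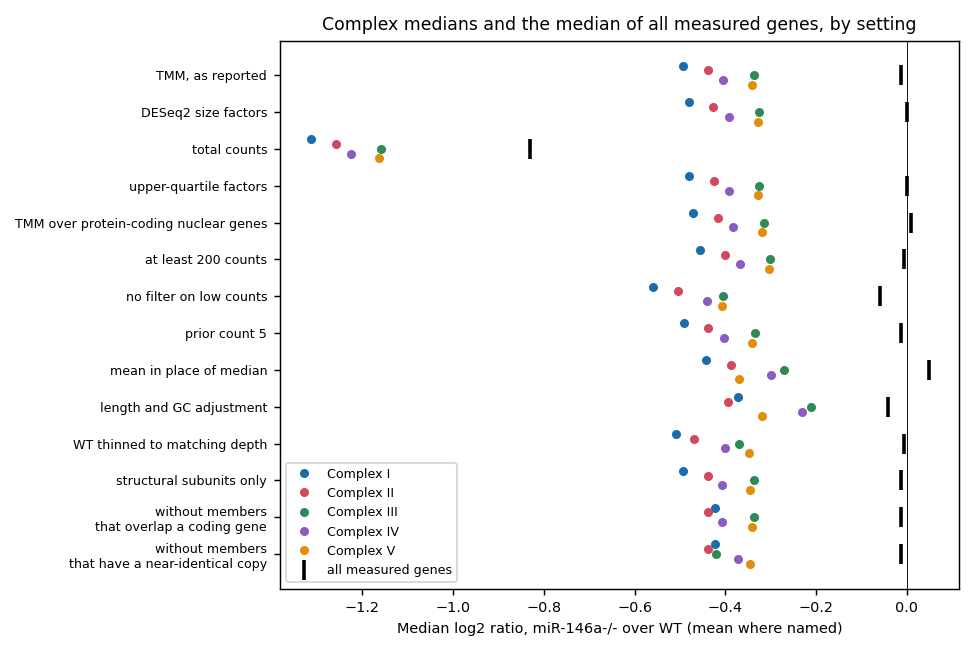
Median log2 ratio of miR-146a-/- over WT (x axis, no unit) for each complex (coloured points) and for all measured genes (black bars) under the settings on the y axis. Every complex median lies below that of all genes in each setting, and with total counts the whole set shifts, all genes to -0.83.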

How the data were processed

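RNA of LSK cells was measured in 1 WT and 1 miR-146a-/- library. The authors deposited unnormalized counts of reads for each Ensembl gene, made, per the file headers, from alignments with junctions placed on the genome and duplicates flagged. Tools in the submitters' processing notes are STAR (2.5.3a) and Salmon (0.9.0), with mm10 as build, and their roles are not stated. The sources used here do not name the counter, annotation, use of strand or treatment of duplicates. GENCODE M21 (GRCm38) gave names for 37693 of 39017 identifiers, positions and transcript lengths, taken from the lower-median-length principal coding transcript.

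Library sizes were scaled by TMM (edgeR 4.0.16, R 4.3.3) over genes with at least 20 summed counts, giving effective sizes of 46617575 (WT) and 16724070 (miR-146a-/-). Ratios used a prior count of 0.5. edgeR and DESeq2 1.42.0 served for scaling only, since 1 library per genotype allows no test. The scripts were tested on simulated data. Near-identical copies were annotated transcripts elsewhere with at least 98% identity over at least 200 bases (BLAST+ 2.17.0). Promoters came from RefSeq. No protein sequences or genome were used here.

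The subunit genes and the other lists were chosen with earlier results of these data known. Values were given for called genes, the 3 highest and 3 lowest of each complex, catalytic core subunits, isoforms, and the called and extreme genes of the other lists. Some single genes are not reported here. Alternatives were 4 scalings, 2 count limits, a 2-fold threshold, a prior count of 5, means, a length and GC adjustment, WT thinned to matching depth, and structural subunits alone. Leaving out genes that overlap a coding gene or have a copy was added after seeing the data.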

Additional observations from a re-analysis of the deposited data

How the results depend on the processing

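No paired analysis was possible because each genotype has 1 library, and for the same reason no library could be left out. The depth limits genes of few counts, such as Cox4i2. The medians of all subunit genes and of each complex stayed below 0 in all 13 alternatives that were run for them, and 0 genes were called higher in each of the alternatives run for that count. With DESeq2 size factors, upper-quartile factors, TMM over protein-coding nuclear genes, a prior count of 5 and thinned WT counts, the same 5 genes were called lower. With total counts, which put the median of all genes at -0.83 and called 51.0% of them lower, the median of the subunit genes was -1.23, with 74 called lower. There the medians were -1.31 in complex I, -1.26 in complex II, -1.16 in complex III, -1.23 in complex IV, -1.16 in complex V, -1.21 for assembly factors and 0.15 for mitochondrially encoded subunits. With a 2-fold threshold 0 were called lower. With the length and GC adjustment 3 were called lower, complex III had a median of -0.21 (its 5 small subunits 0.058, against -0.14 before), complex IV -0.23 and mitochondrially encoded subunits 1.07. The mitochondrially encoded median was 1.03 with at least 200 counts, 0.90 with no filter and 0.78 as a mean, where the set of genes or the summary itself differs. With at least 200 counts 4 subunit genes were called lower, without Sdhb, and with no filter 6.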
